A study of Mus musculus with 12 samples.

Results

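The mouse MHC class I genes described here were 10 genes, taken by gene symbol from the count tables: H2-K1, H2-D1, H2-Q1, H2-Q2, H2-Q4, H2-Q6, H2-Q7, H2-Q10 and H2-T23, which encode heavy chains, and B2m, which encodes the light chain. All 10 were among the 48576 listed genes and all 10 were among the 17964 genes with enough counts to be tested. H2-Q1 was chosen by its measured levels, which moved in opposite directions in the YAP and the MYC livers, so its values are described without a test in every comparison, and no test is given for any of the 10 in the contrast between the models. RNA from whole mouse liver was sequenced in 12 libraries from 5 groups. In the first model, livers carried Col-TRE-YAPS127A and Rosa26-LSL-rtTA, and doxycycline induced YAPS127A, a form of the Hippo pathway coactivator YAP that escapes inhibition, for 2 weeks (n = 2) or 4 weeks (n = 3). In the YAP controls (n = 2), with the same transgenes, it was not induced. The mice of that model received AAV-TBG-Cre at 8 to 10 weeks of age, a virus whose TBG promoter directs Cre to hepatocytes, so that rtTA was made there. That age is listed for the YAP controls as well, and whether they received doxycycline is not given in the sources used here. In the second model, LAP-tTA; TRE-MYC offspring (n = 3) expressed the MYC oncoprotein in hepatocytes from about embryonic day 8, when doxycycline was withdrawn from the mothers, and the MYC controls (n = 2) carried LAP-tTA without TRE-MYC under the same schedule. Livers of that model were taken 4 weeks after birth. The labels name hepatocytes as the cell type while the protocol describes RNA of total liver, and they give no strain, sex or H2 haplotype.

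A class I molecule is a heavy chain held together with beta-2-microglobulin around a short peptide, and it shows samples of the cell's own proteins to CD8 T cells and natural killer cells. The peptides are cut by the proteasome, carried into the endoplasmic reticulum by the TAP transporter and loaded there with the help of tapasin, calreticulin and Pdia3, and interferons raise many of these genes through Irf1 and Nlrc5. H2-K1 and H2-D1 encode the classical, highly polymorphic heavy chains; the H2-Q and H2-T genes encode non-classical ones, among them H2-Q10, a soluble heavy chain that hepatocytes secrete.

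Total counts lay between 12511170 and 17690798 per library. Pairs of libraries of 1 group differed by more than counting error, with a chi-square per degree of freedom of 11.2 to 107 where counting error alone gives about 1. Levels are given in CPM (the read count relative to the size of the library) after scaling by edgeR's TMM factors, which ran from 0.74 in the YAP controls to 1.35 in 4-week YAP replicate 3. Scaling by total counts instead would move the median log2 fold change of all genes by 0.54 at 2 weeks of YAP, by 0.73 at 4 weeks and by 0.41 with MYC. It would raise the share of called genes that were higher to 84.2% from 54.4% at 2 weeks, to 89.8% from 53.6% at 4 weeks and to 81.5% from 53.3% with MYC. Mouse Yap1 stood at 65.6 to 87.4 CPM in the 5 induced YAP libraries and at 81.2 and 86.5 CPM in the YAP controls, and Myc at 22.2 to 31.4 CPM in MYC livers and at 6.71 and 15.5 CPM in MYC controls. Whether these counts include transgene reads is not given in the sources used here, so Yap1 does not check the labels. Xist and Y-linked genes gave a female pattern in all 3 of the 4-week YAP libraries and in 2-week replicate 2, and a male pattern in the other 8 libraries, so that at 4 weeks sex and induction cannot be told apart. All 12 hepatocyte markers were detected in each group, and their summed level was 75882 to 95712 CPM in 2-week YAP livers, 39719 to 78570 CPM in 4-week YAP livers and 91072 to 103277 CPM in YAP controls. It was 35576 to 61414 CPM in MYC livers against 117500 to 122162 CPM in MYC controls. Much of this sum is Alb, with a mean of 54702 CPM in 2-week YAP livers and 40366 CPM in YAP controls. At 2 weeks 5 of the 12 markers passed lower and none higher, so the sum does not stand for each marker. The sum of 5 pan-leukocyte markers, all detected in each group, was 236 to 269 CPM in 2-week YAP livers, 108 to 179 CPM in 4-week YAP livers and 37.2 to 53.7 CPM in YAP controls. It was 121 to 178 CPM in MYC livers against 45.8 to 46.0 CPM in MYC controls. In bulk RNA, fewer cells of a type and less RNA per cell cannot be told apart, and the part of these cell markers in the class I levels below was not tested. Nothing in the labels says how the libraries of a group relate to each other beyond their number, so p-values measure the spread between these samples.

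The 9 heavy-chain genes lie in the H2 region of chromosome 17, and B2m lies on chromosome 2, all annotated as protein-coding (GENCODE vM21, GRCm38). H2-K1 stands at chr17:33996017-34000347 on the minus strand, and H2-D1 at chr17:35262730-35267499 on the plus strand. The Q genes follow H2-D1 on the plus strand, starting with H2-Q1 at chr17:35320405-35325099 and H2-Q2 at chr17:35342242-35346762. H2-Q4 is at chr17:35379617-35385290, H2-Q6 at chr17:35424850-35430055, H2-Q7 at chr17:35439155-35443773 and H2-Q10 at chr17:35470089-35474563. H2-T23 lies further along at chr17:36029773-36032855 on the minus strand, and B2m at chr2:122147686-122153083 on the plus strand.

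Promoters are shown for 5 genes whose levels moved in different ways: the 250 bases upstream of the start, 5′ to 3′ on the gene's own strand, from RefSeq on GRCm38.p6. They lie at chr17:34000334-34000583 (minus strand, the more downstream of 2 RefSeq starts), chr17:35342057-35342306, chr17:35379367-35379616, chr17:35469839-35470088 and chr2:122147437-122147686 (plus strand). Capitals mark matches to 4 motifs, which overlap each other nowhere in these windows, searched on both strands and chosen after the promoters were seen: GGGGATTCCC, a kappa B site; AGTTTCACTTC, an interferon response element; CCAAT, the core of the site that factor NF-Y binds; and TATAAA. A match on the other strand is printed as its reverse complement.
H2-K1: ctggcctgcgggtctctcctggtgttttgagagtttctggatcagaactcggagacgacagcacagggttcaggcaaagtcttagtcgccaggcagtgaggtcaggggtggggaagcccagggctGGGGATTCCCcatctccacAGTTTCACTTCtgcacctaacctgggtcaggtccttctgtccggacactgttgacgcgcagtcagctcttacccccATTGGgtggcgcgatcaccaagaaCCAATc
H2-Q2: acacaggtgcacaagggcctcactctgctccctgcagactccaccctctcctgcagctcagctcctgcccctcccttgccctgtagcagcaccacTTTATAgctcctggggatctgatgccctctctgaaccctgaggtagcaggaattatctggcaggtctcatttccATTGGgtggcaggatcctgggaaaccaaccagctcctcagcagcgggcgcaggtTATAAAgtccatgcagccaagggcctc
H2-Q4: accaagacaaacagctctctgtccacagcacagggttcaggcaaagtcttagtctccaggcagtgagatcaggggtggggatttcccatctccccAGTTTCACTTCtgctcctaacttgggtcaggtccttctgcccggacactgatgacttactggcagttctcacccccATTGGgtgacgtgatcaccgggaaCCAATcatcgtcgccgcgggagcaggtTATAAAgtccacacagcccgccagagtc
H2-Q10: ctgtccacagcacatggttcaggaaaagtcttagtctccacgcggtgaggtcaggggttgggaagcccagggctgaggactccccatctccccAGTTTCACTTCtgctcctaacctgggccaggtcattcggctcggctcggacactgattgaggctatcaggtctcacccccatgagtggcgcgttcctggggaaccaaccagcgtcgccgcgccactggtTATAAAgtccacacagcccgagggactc
B2m: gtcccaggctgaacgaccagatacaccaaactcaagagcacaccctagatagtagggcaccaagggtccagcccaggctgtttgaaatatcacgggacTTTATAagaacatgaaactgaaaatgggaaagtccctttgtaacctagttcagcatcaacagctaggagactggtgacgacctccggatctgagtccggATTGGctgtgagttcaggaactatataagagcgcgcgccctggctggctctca
H2-Q10, the secreted liver form, has the interferon response element and the TATA letters, without the kappa B or CCAAT letters in this window. H2-K1 has the kappa B, interferon response and CCAAT letters, as do H2-D1, H2-Q6 and H2-Q7, and H2-D1 also has the TATA letters. H2-Q4 has the interferon response, CCAAT and TATA letters, while H2-Q2 and B2m have CCAAT and TATA letters and H2-T23 has CCAAT. Of 32851 promoters of the same length, 28 (0.0852%) hold GGGGATTCCC, 14 (0.0426%) hold AGTTTCACTTC, 33.8% hold CCAAT and 12.4% hold TATAAA. The kappa B and interferon response letters were read from the H2-K1 promoter itself, so its own matches were fixed in advance. Only exact letters were searched, so a promoter without a match may still hold a variant of the site. The TATA match of B2m lies on the other strand, at -152 from the start. A match is a run of letters and no measurement of binding.

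H2-Q10 was lower in all 3 comparisons of an oncogene with its controls. It had 421 and 341 CPM in 2-week YAP livers and 330, 525 and 401 CPM in 4-week YAP livers, against 1533 and 1793 CPM in YAP controls. In MYC livers it had 399, 291 and 224 CPM, against 1016 and 965 CPM in MYC controls. Every induced library lay below every control library of its own model. Relative to the controls, its log2 fold change was -2.13 ± 0.31 (SE) at 2 weeks (edgeR quasi-likelihood test, Benjamini-Hochberg adjusted p = 0.000792), -1.99 ± 0.27 at 4 weeks (edgeR adjusted p = 0.000423) and -1.70 ± 0.27 with MYC (edgeR adjusted p = 0.00232). By total counts the falls were smaller, at -1.61, -1.24 and -1.32, and the calls held. The 2-week library with a male pattern, at 421 CPM, lay below both male-pattern controls. This is 1 library, and the part of sex in the H2-Q10 levels was not tested. Ranked by mean, the control groups came first, with their ranges apart from each other and from the induced groups, while the 3 induced groups overlapped.

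H2-K1, a classical heavy chain, passed the test at 4 weeks of YAP and with MYC. It had 578 and 460 CPM in 2-week YAP livers and 384, 591 and 496 CPM in 4-week YAP livers, against 890 and 948 CPM in YAP controls. In MYC livers it had 153, 124 and 85.4 CPM, against 298 and 241 CPM in MYC controls. By TMM scaling no induced library reached the level of its controls in either model, whereas by total counts 4-week replicate 2 had 739 CPM and replicate 3 had 667 CPM, against 661 and 703 CPM in YAP controls. Fitted log2 fold changes were -0.82 ± 0.29 at 2 weeks, which did not pass (edgeR adjusted p = 0.0574) but did by DESeq2 (-0.83) and with no low-count filter (-0.81), -0.91 ± 0.26 at 4 weeks (edgeR adjusted p = 0.0219) and -1.16 ± 0.26 with MYC (edgeR adjusted p = 0.0133). By total counts the 4-week value was -0.16 and did not pass, while the MYC value was -0.76 and did. The 4-week call was lost without either YAP control or without 4-week replicate 3 (log2 fold changes of -0.94 without control 1, -0.86 without control 2 and -0.91 without replicate 3), and the MYC call without either MYC control (-1.00 without control 1 and -1.30 without control 2).

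H2-D1, the other classical heavy chain, passed in no comparison by edgeR's test. Its levels were 330 and 267 CPM in 2-week YAP livers and 189, 293 and 249 CPM in 4-week YAP livers, against 299 and 296 CPM in YAP controls. The MYC livers had 324, 192 and 149 CPM, against 468 and 377 CPM in MYC controls, again with no overlap. H2-D1 had a log2 fold change of 0.01 ± 0.33 at 2 weeks (edgeR adjusted p = 0.996), -0.29 ± 0.30 at 4 weeks (edgeR adjusted p = 0.489; 0.46 by total counts) and -0.93 ± 0.30 with MYC, which did not pass (edgeR adjusted p = 0.0504). It passed without MYC replicate 1 (-1.31), by DESeq2 (-0.92) and with no low-count filter (-0.93).

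B2m, the light chain shared by the class I heavy chains, fell at 4 weeks of YAP. It had 2387 and 1742 CPM in 2-week YAP livers and 1548, 1643 and 1252 CPM in 4-week YAP livers, against 2850 and 3142 CPM in YAP controls. In MYC livers it had 1436, 946 and 698 CPM, against 2038 and 1666 CPM in MYC controls. By TMM scaling induced and control libraries did not overlap in either model, whereas by total counts 2-week replicate 1 had 2331 CPM, against 2117 and 2330 CPM in YAP controls. For B2m the log2 fold change was -0.54 ± 0.34 at 2 weeks (edgeR adjusted p = 0.256; -0.0229 by total counts), -1.02 ± 0.30 at 4 weeks (edgeR adjusted p = 0.0236) and -0.85 ± 0.30 with MYC (edgeR adjusted p = 0.0720). The 4-week call did not hold by total counts, which gave -0.29, and was lost without YAP control 1 (-1.08), YAP control 2 (-0.94) or 4-week replicate 3 (-0.91). The MYC value passed without MYC replicate 1 (-1.17), by DESeq2 (-0.84) and with no low-count filter (-0.85).

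**Figure D1:**
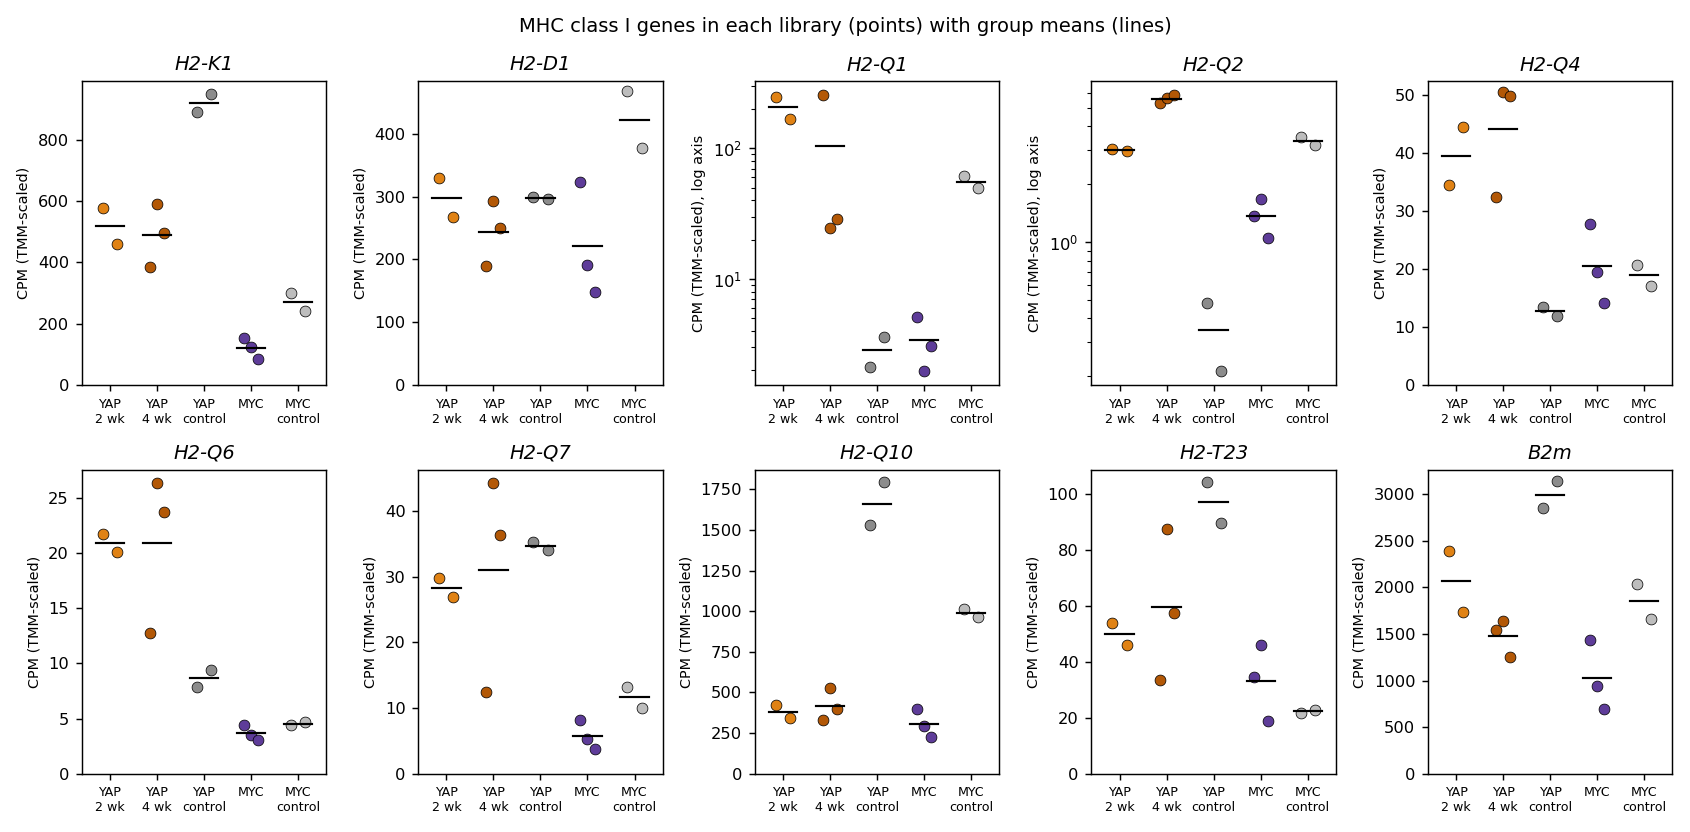
CPM after TMM scaling for each of the 10 genes (y axis; log axis for H2-Q1 and H2-Q2, linear from 0 for the others), with 1 point per library and a line at the group mean. H2-Q10 and, on this scale, H2-K1 lie lower in every induced library than in the controls of the same model, while H2-Q1 is at 24.4 to 257 CPM in induced YAP livers, 2.13 to 3.61 CPM in YAP controls, 1.96 to 5.12 CPM in MYC livers and 49.5 to 61.3 CPM in MYC controls.

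H2-Q1, a heavy chain of the Q region, had opposite directions in the models. It had 249 and 169 CPM in 2-week YAP livers and 257, 24.4 and 28.9 CPM in 4-week YAP livers, against 2.13 and 3.61 CPM in YAP controls. In MYC livers it had 5.12, 1.96 and 3.08 CPM, against 61.3 and 49.5 CPM in MYC controls. Induced and control libraries did not overlap in either model, while the 2 YAP times overlapped, and 4-week replicate 1 stood about with the 2-week libraries and far above the other 4-week ones. The log2 fold change was 6.19 ± 1.27 (SE) at 2 weeks, 5.17 ± 1.195 at 4 weeks and -4.02 ± 0.97 with MYC. MYC livers and YAP controls overlapped at the low end. The log2 fold change with MYC minus that at 4 weeks of YAP was -9.19 ± 1.56 (SE), and -7.24 without 4-week replicate 1, whose removal gave a 4-week log2 fold change of 3.22. The control groups themselves stood apart, at 55.4 ± 8.30 CPM in MYC controls and 2.87 ± 1.05 CPM in YAP controls (SD, n = 2 each).

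H2-Q2, the neighbour of H2-Q1, had few reads and also had opposite directions. It had 3.05 and 2.99 CPM in 2-week YAP livers and 5.27, 5.62 and 5.84 CPM in 4-week YAP livers, against 0.483 and 0.212 CPM in YAP controls, where it rested on 5 and 2 reads. MYC livers had 1.37, 1.68 and 1.04 CPM, against 3.54 and 3.20 CPM in MYC controls. All induced YAP libraries were above, and all MYC libraries below, their controls. For H2-Q2 the log2 fold change was 3.07 ± 0.49 at 2 weeks (edgeR adjusted p = 0.00123), 3.95 ± 0.47 at 4 weeks (edgeR adjusted p = 0.000209) and -1.30 ± 0.36 with MYC (edgeR adjusted p = 0.0296). The MYC call was lost by total counts (-0.89), with no low-count filter (-1.30), with libraries of the same model only (-1.28) and with replicate number as a block (-1.14). It was also lost without MYC replicate 2 (-1.47) or replicate 3 (-1.14), and without MYC control 1 (-1.23) or control 2 (-1.37). Of the 50-base windows in H2-Q2 transcripts, 16.1% also occur in another gene, 12.9% in H2-Q1, and how multi-mapped reads were counted is not given in the sources used here. Summed with H2-Q1, the log2 fold change was 6.04 ± 1.14 at 2 weeks, 5.08 ± 1.08 at 4 weeks and -3.62 ± 0.86 with MYC, given with no test.

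H2-Q4 rose at both YAP times. It had 34.6 and 44.6 CPM in 2-week YAP livers and 32.4, 50.5 and 49.8 CPM in 4-week YAP livers, against 13.5 and 11.9 CPM in YAP controls. All 5 induced libraries lay above both controls. H2-Q4 had a log2 fold change of 1.64 ± 0.32 at 2 weeks (edgeR adjusted p = 0.00353) and 1.80 ± 0.30 at 4 weeks (edgeR adjusted p = 0.00132), calls that held in each fit that left out 1 library, as did those of H2-Q2 at both YAP times and of H2-Q10 in all 3 comparisons. MYC livers had 27.8, 19.5 and 14.2 CPM, against 20.8 and 17.2 CPM in MYC controls, ranges that overlap, and the log2 fold change was 0.11 ± 0.28 (edgeR adjusted p = 0.824).

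H2-Q6 and H2-Q7 encode forms of Qa-2, a heavy chain anchored to the membrane by a lipid, and are near copies of each other. H2-Q6 had 21.7 and 20.1 CPM in 2-week YAP livers and 12.8, 26.4 and 23.7 CPM in 4-week YAP livers, against 7.83 and 9.44 CPM in YAP controls. Its log2 fold change was 1.28 ± 0.33 at 2 weeks (edgeR adjusted p = 0.0143) and 1.28 ± 0.31 at 4 weeks (edgeR adjusted p = 0.00872), with no overlap. H2-Q7 did not move with it: it had 29.8 and 26.8 CPM in 2-week YAP livers and 12.4, 44.3 and 36.4 CPM in 4-week YAP livers, against 35.4 and 34.1 CPM in YAP controls. Neither H2-Q7 value passed, with log2 fold changes of -0.29 ± 0.49 at 2 weeks (0.24 by total counts; edgeR adjusted p = 0.696) and -0.16 ± 0.44 at 4 weeks (0.61 by total counts; edgeR adjusted p = 0.805). Windows of 50 bases that also occur in any other gene made up 32.0% of H2-Q6 and 34.9% of H2-Q7. Within the pair, 13.9% of the windows of H2-Q6 occur in H2-Q7 and 17.0% of those of H2-Q7 in H2-Q6, and H2-Q6 shares 12.3% with H2-Q4 and H2-Q7 17.4% with H2-Q5. Reads of the pair are therefore uncertain. Counts of the pair summed gave a log2 fold change of 0.18 ± 0.40 at 2 weeks (edgeR adjusted p = 0.768) and 0.26 ± 0.37 at 4 weeks (edgeR adjusted p = 0.611), so the H2-Q6 call does not hold for the sum. The 2-week H2-Q6 call was also lost when any 1 of the 4 libraries was left out (1.15 without YAP control 1, 1.42 without YAP control 2, 1.23 without 2-week replicate 1 and 1.34 without 2-week replicate 2), and the 4-week call without YAP control 1 (1.16).

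With MYC, H2-Q6 had 4.41, 3.51 and 3.08 CPM, against 4.42 and 4.68 CPM in MYC controls, and H2-Q7 had 8.16, 5.26 and 3.83 CPM, against 13.2 and 10.06 CPM in MYC controls. Every MYC library was below both controls for either gene, though for H2-Q6 the highest MYC library and the lower control were nearly level. The log2 fold change was -0.31 ± 0.31 for H2-Q6 (edgeR adjusted p = 0.529; 0.08 by total counts) and -1.01 ± 0.46 for H2-Q7 (edgeR adjusted p = 0.157), neither of which passed.

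H2-T23, the heavy chain of Qa-1 and a ligand of inhibitory receptors on natural killer cells, passed in no comparison. It had 53.8 and 46.0 CPM in 2-week YAP livers and 33.5, 87.5 and 57.5 CPM in 4-week YAP livers, against 104 and 89.4 CPM in YAP controls. MYC livers had 34.6, 46.0 and 18.9 CPM, against 21.7 and 22.8 CPM in MYC controls, and overlapped with them. The log2 fold change was -0.96 ± 0.43 at 2 weeks (edgeR adjusted p = 0.125), -0.70 ± 0.39 at 4 weeks (edgeR adjusted p = 0.186; 0.06 by total counts) and 0.57 ± 0.40 with MYC (edgeR adjusted p = 0.365). Without 4-week replicate 2 the 4-week value was -1.09 and passed.

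Counted over the 9 genes other than H2-Q1, 4 passed at 2 weeks of YAP, 3 of them higher (H2-Q2, H2-Q4, H2-Q6) and 1 lower (H2-Q10), where 27.8% of all 17964 tested genes passed, 15.1% higher and 12.7% lower. At 4 weeks of YAP 6 passed, the same 3 higher and 3 lower (H2-K1, H2-Q10, B2m), against 33.8% of all tested genes, 18.1% higher and 15.7% lower. By total counts 4 passed at 4 weeks, 3 higher and 1 lower, without H2-K1 and B2m. On that scale 7863 of all 17964 tested genes were higher and 897 lower. With MYC 3 passed, all lower (H2-K1, H2-Q2, H2-Q10), against 18.3% of all tested genes, 9.76% higher and 8.56% lower; none was higher in edgeR, at an unadjusted p under 0.05 or by DESeq2. The median log2 fold change of all tested genes was 0.10 at 2 weeks, 0.18 at 4 weeks and 0.02 with MYC. The 4-week count was 3 without YAP control 1, and the MYC count was 5 without MYC replicate 1 and 1 without either MYC control. DESeq2 called 5 at 2 weeks (3 higher and 2 lower), 6 at 4 weeks and 5 with MYC, all lower. The share of all genes that DESeq2 called is not given here, so nothing is read from its counts. Both YAP times were set against the same 2 controls, so their values are not independent.

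Between 4 and 2 weeks of YAP none of the 9 genes passed in edgeR, where 0.0612% of all tested genes did, and none passed by DESeq2; 1 gene had an unadjusted p under 0.05. Log2 fold changes of 4 against 2 weeks ran from -0.48 ± 0.30 for B2m (edgeR adjusted p = 0.793) to 0.88 ± 0.36 for H2-Q2 (edgeR adjusted p = 0.692), the one with the unadjusted p under 0.05. H2-Q2 had 5.27 to 5.84 CPM at 4 weeks against 2.99 to 3.05 CPM at 2 weeks, ranges that did not overlap. The H2-Q1 value was -1.02 ± 0.87, and -2.97 without 4-week replicate 1. H2-Q10 did not separate the times, at 330 to 525 CPM after 4 weeks and 341 to 421 CPM after 2 weeks.

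**Figure D2:**
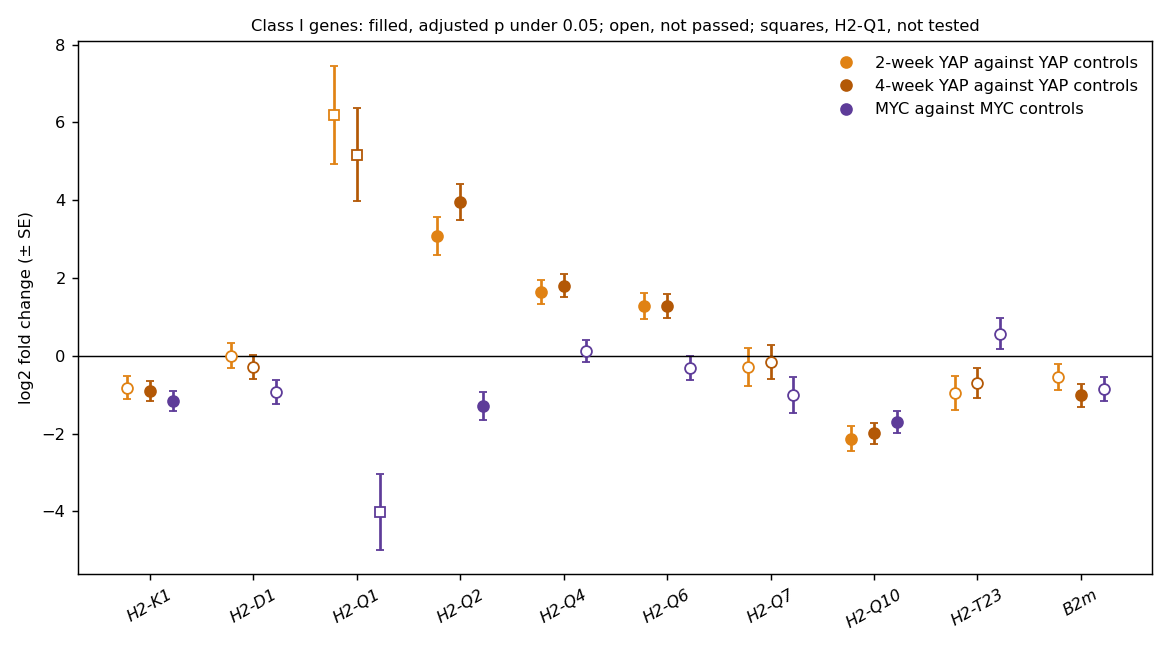
Log2 fold change ± SE (y axis) of each class I gene (x axis) for 2-week YAP, 4-week YAP and MYC livers, each against its own controls; filled circles passed an edgeR adjusted p under 0.05, open circles did not, and squares mark H2-Q1, which was not tested. H2-Q10 is lower in all 3 comparisons, at -2.13, -1.99 and -1.70, while H2-Q1 is at 6.19, 5.17 and -4.02.

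The log2 fold change with MYC minus that at 4 weeks of YAP is a description here for every gene, because H2-Q1 was chosen by it and the other 9 genes were taken up with H2-Q1. It was -5.26 for H2-Q2, -1.69 for H2-Q4, -1.59 for H2-Q6, -0.85 for H2-Q7, -0.65 for H2-D1 and -0.25 for H2-K1. It was 0.17 for B2m (-0.19 by total counts), 0.29 for H2-Q10 (-0.07 by total counts) and 1.27 for H2-T23. The 4 genes with the lowest values, H2-Q1, H2-Q2, H2-Q4 and H2-Q6, follow H2-D1 along the chromosome in this order among the 10, ahead of H2-Q7 and H2-Q10. This order rests on the contrast that chose H2-Q1 and was not tested, so nothing is read from it. H2-Q4 and H2-Q6 did not pass with MYC (0.11 and -0.31), and H2-Q6 summed with H2-Q7 was at 0.26 at 4 weeks. H2-Q1 and H2-Q2 share stretches of sequence, as do H2-Q4 and H2-Q6, so their values may not be independent. Over all tested genes the log2 fold change with MYC minus that at 4 weeks of YAP had a median of -0.07. Every 4-week YAP library above and every MYC library below its controls was the pattern of 3 of the 10 genes (H2-Q1, H2-Q2, H2-Q6) and of 3.57% of all tested genes, and since the pattern chose H2-Q1, nothing is read from that count.

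Set on a scale per length (CPM per kilobase of coding-transcript exons), the heavy-chain signal was mostly H2-Q10, H2-K1 and H2-D1. H2-Q10 made up 23.6 ± 0.15% of the summed 9 heavy-chain genes in 2-week YAP livers (SD, n = 2) and 27.8 ± 2.39% in 4-week YAP livers (n = 3), against 52.1 ± 2.26% in YAP controls (n = 2). In MYC livers its share was 42.4 ± 1.55% (n = 3), against 55.1 ± 2.67% in MYC controls (n = 2). Every induced library was below its controls in this share, which does not depend on the scaling between libraries. The share of H2-D1 was 16.3 ± 0.12% in 2-week YAP livers and 14.3 ± 1.37% in 4-week YAP livers, against 8.26 ± 0.61% in YAP controls. It was 26.6 ± 2.87% in MYC livers against 20.6 ± 1.41% in MYC controls. H2-K1 made up 36.9 ± 0.23% in 2-week YAP livers and 37.6 ± 3.22% in 4-week YAP livers, against 33.2 ± 0.76% in YAP controls. It made up 19.4 ± 1.00% in MYC livers against 17.2 ± 1.15% in MYC controls. H2-Q1 took 12.52 ± 1.49% in 2-week YAP livers and 7.53 ± 10.16% in 4-week YAP livers, of which replicate 1 had 19.3% and the other 2 libraries 1.36% and 1.98%, against 0.0872 ± 0.026% in YAP controls.

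The summed heavy-chain level was 812 ± 126 CPM per kilobase in 2-week YAP livers and 751 ± 115 in 4-week YAP livers, against 1599 ± 107 in YAP controls. It was 363 ± 114 in MYC livers against 905 ± 76.2 in MYC controls. Without H2-Q10 it was 621 ± 97.8 in 2-week YAP livers and 540 ± 66.1 in 4-week YAP livers, against 764 ± 15.3 in YAP controls. Without that gene it was 210 ± 70.0 in MYC livers against 408 ± 58.4 in MYC controls. By total counts the sum without H2-Q10 turned round with YAP, at 660 ± 18.6 in 2-week YAP livers and 670 ± 114 in 4-week YAP livers, against 567 ± 10.8 in YAP controls. With H2-Q10 it stayed lower by total counts, at 864 ± 22.7 in 2-week YAP livers and 932 ± 187 in 4-week YAP livers, against 1187 ± 78.6 in YAP controls. Both sums stayed lower in MYC livers by total counts. The ratio of B2m to the heavy-chain sum, per length, was 2.94 ± 0.20 in 2-week YAP livers and 2.32 ± 0.38 in 4-week YAP livers, against 2.18 ± 0.003 in YAP controls. That ratio was 3.26 ± 0.18 in MYC livers against 2.37 ± 0.14 in MYC controls. B2m signal therefore exceeded the heavy-chain sum in each of the 5 groups, and the 4-week YAP range of the ratio spanned that of the controls. These sums are described with no test.

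**Figure D3:**
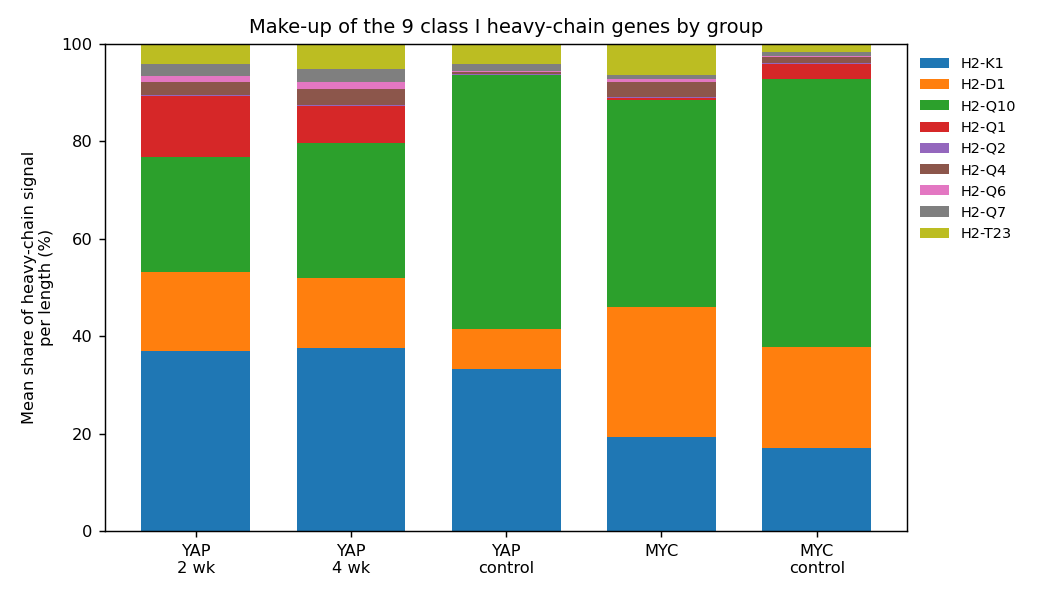
Mean share (y axis, %) of each heavy-chain gene in the summed signal per length of the 9 heavy-chain genes, 1 bar per group. The H2-Q10 block is 23.6% and 27.8% in 2-week and 4-week YAP livers, 52.1% in YAP controls, 42.4% in MYC livers and 55.1% in MYC controls.

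The genes that load peptide onto class I were mostly lower with YAP by TMM scaling. Of 9 tested, 5 fell at 2 weeks (median log2 fold change -0.93; 2 fell by total counts), 5 fell at 4 weeks (median -0.96; 2 fell and 2 rose by total counts) and 1 fell with MYC (median -0.13; 2 rose by total counts). The 4 others at each YAP time did not pass. Of all tested genes, 15.1% passed higher and 12.7% lower at 2 weeks, 18.1% and 15.7% at 4 weeks, and 9.76% and 8.56% with MYC. By total counts 5228 of the 17964 genes passed higher and 979 lower at 2 weeks, 7863 and 897 at 4 weeks, and 3277 and 743 with MYC. Counts for this list and the later ones stand beside these values. Calr, the chaperone calreticulin, stood at 482 and 436 CPM in 2-week YAP livers and 485, 372 and 389 CPM in 4-week YAP livers, against 1216 and 1432 CPM in YAP controls. Its log2 fold change was -1.53 ± 0.22 at 2 weeks (edgeR adjusted p = 0.000774) and -1.67 ± 0.20 at 4 weeks (edgeR adjusted p = 0.000193), and by total counts it was -1.00 and -0.95 and passed. Uggt1, a sensor of glycoprotein folding, fell by 1.26 at 2 weeks (edgeR adjusted p = 0.000312) and by 1.22 at 4 weeks (edgeR adjusted p = 0.00016), and with MYC by 0.65 (edgeR adjusted p = 0.00916), a call that total counts kept at both YAP times and not with MYC. Pdia3 and Canx, an oxidoreductase and a lectin chaperone, fell by 1.01 and 0.93 at 2 weeks (edgeR adjusted p = 0.00407 and 0.00409), calls that total counts did not keep. These chaperones serve many secreted proteins besides class I. Tap1, Tap2 and Tapbp, the transporter subunits and tapasin, passed in none of the 3 comparisons by TMM scaling (Tapbp rose at 4 weeks and with MYC by total counts), with log2 fold changes of 0.22, -1.202 and -0.23 at 2 weeks, 0.08, -0.69 and 0.05 at 4 weeks and 0.68, -0.13 and 0.54 with MYC. The MYC count was 2 without MYC replicate 3 and 0 without MYC control 1.

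Of 11 proteasome genes for class I peptides, 6 fell at 2 weeks of YAP (median log2 fold change -0.73) and 7 at 4 weeks (median -0.78), where total counts gave 1 lower and 1 higher at each time; the others did not pass. Pomp, a proteasome assembly factor, fell by 1.33 at 4 weeks (edgeR adjusted p = 0.000381), also by total counts, and Psmb6, a catalytic subunit of the standard proteasome, by 0.99 at each time (edgeR adjusted p = 0.00318 and 0.0015), calls that total counts did not keep. The 2-week count was 2 without YAP control 1 or 2-week replicate 2 and 3 without YAP control 2 or 2-week replicate 1. With MYC 3 rose and 2 fell (median 0.20), where total counts gave 4 higher and none lower (median 0.63). Psme1 and Psme2, the subunits of the interferon-inducible PA28 activator, rose by 0.96 ± 0.17 and 0.83 ± 0.22 (edgeR adjusted p = 0.00424 and 0.0226), and Psmb10, an immunoproteasome subunit, by 1.32 ± 0.38 (edgeR adjusted p = 0.0348). Psmb8 and Psmb9, the other immunoproteasome subunits, did not pass, at 0.63 and 0.69 with MYC and at -0.47 and -1.32 at 4 weeks of YAP. The MYC count was 2 without MYC replicate 2, 1 without MYC control 1 and 0 without MYC control 2.

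Among 17 regulators of class I transcription, 2 rose and 1 fell at 2 weeks of YAP and 3 rose and 1 fell at 4 weeks. With MYC 3 rose and 1 fell. Of all tested genes 27.8% passed at 2 weeks, 33.8% at 4 weeks and 18.3% with MYC, and nothing is read from these counts. By total counts 6 rose at 2 weeks, 11 at 4 weeks and 6 with MYC, and 1 fell, with MYC. On that scale 5228, 7863 and 3277 of all 17964 tested genes rose. With MYC, Irf9, a factor of the interferon response, rose by 0.80 ± 0.21 (edgeR adjusted p = 0.0233) and Irf2, a repressor of interferon genes, fell by 1.19 (edgeR adjusted p = 0.0054). Without MYC replicate 2 or either MYC control the MYC count was 1. Nlrc5, the class I transactivator, did not pass, at 0.14 at 2 weeks, 0.56 at 4 weeks (1.32 by total counts, which passed) and -0.15 with MYC (0.23 by total counts). Irf1 did not pass either, at -0.32 at 2 weeks (0.21 by total counts), 0.15 at 4 weeks and 1.00 with MYC (1.41 by total counts, which passed). Nfya and Nfyb, subunits of the factor that binds CCAAT, had opposite directions with YAP: at 4 weeks Nfya rose by 1.63 ± 0.30 (edgeR adjusted p = 0.00236) and Nfyb fell by 1.15 (edgeR adjusted p = 0.00296; not called by total counts). The 4-week count was 2 without YAP control 1 or 4-week replicate 2.

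Interferon-stimulated genes rose in part in all 3 comparisons. With MYC 20 of 42 rose and 22 did not pass (median log2 fold change 1.71), where total counts gave 29. Of all tested genes 9.76% rose with MYC, and 3277 of 17964 by total counts. The list count was 9 without MYC replicate 2. All or nearly all calls of the list were lost without either MYC control, fits that leave a lone control. The number called among all tested genes also changed when 1 library was left out. At an unadjusted p under 0.05, 32 rose and 1 fell, and by DESeq2 29 rose and none fell. No share of all tested genes is given beside these last counts, and nothing is read from them. Irf7, a regulator of type I interferons, rose with MYC by 2.24 ± 0.43 (edgeR adjusted p = 0.00668). Usp18, an inhibitor of interferon receptor signalling counted in the signalling list below, rose with MYC by 2.51 ± 0.29 (edgeR adjusted p = 0.000552). At 2 weeks of YAP 12 rose and 2 fell (median 0.49) and at 4 weeks 11 rose and 2 fell (median 0.85); total counts gave 17 and 22 rises and no falls. Ifit2 rose by 3.62 ± 0.40 at 2 weeks (edgeR adjusted p = 0.000195), by 3.24 ± 0.38 at 4 weeks (edgeR adjusted p = 0.000196) and by 1.57 ± 0.35 with MYC (edgeR adjusted p = 0.0122). The 2-week total of 14 became 8 without YAP control 1, 4 without YAP control 2 and 5 without 2-week replicate 2, and the 4-week total of 13 became 7 and 3 without YAP controls 1 and 2. Of 13 interferon receptor and signalling genes, 4 rose and 1 fell at 2 weeks, 5 rose at 4 weeks and 2 rose with MYC (7, 7 and 3 rose by total counts, and none fell). These totals became 3 at 2 weeks without YAP control 2 or 2-week replicate 1, 3 at 4 weeks without YAP control 1, and 1 with MYC without either MYC control. Ifngr1, a chain of the interferon gamma receptor, had 81.9 and 109 CPM in 2-week YAP livers and 56.6 to 104 CPM in 4-week YAP livers, against 13.9 and 17.3 CPM in YAP controls, a log2 fold change of 2.62 ± 0.30 at 2 weeks (edgeR adjusted p = 0.000221).

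Class II genes, whose products show peptides to CD4 T cells and which mark antigen-presenting cells, rose with YAP beside the leukocyte markers given above. Of 9 tested, 5 rose at 2 weeks (median log2 fold change 2.15) and 6 at 4 weeks (median 1.67), and 7 at each time by total counts. By contrast 1 and 2 did at 2 weeks without YAP controls 1 and 2, 3 and 1 without 2-week replicates 1 and 2, 1 at 4 weeks without either YAP control, and 3 without 4-week replicate 2 or 3. H2-DMa, a peptide editor of class II, rose by 4.02 ± 0.52 at 2 weeks (edgeR adjusted p = 0.000399) and Cd74, the class II invariant chain, by 1.92 ± 0.54 (edgeR adjusted p = 0.0256). With MYC none of the 9 passed in edgeR or by DESeq2, and 1 had an unadjusted p under 0.05 (median 0.34; 1 rose by total counts, and 1 without MYC replicate 3). The 5 pan-leukocyte genes all rose in each of the 3 comparisons, with median log2 fold changes of 2.63 at 2 weeks, 1.71 at 4 weeks and 2.13 with MYC. Of 12 hepatocyte genes, 5 fell at 2 weeks, 8 at 4 weeks and 5 with MYC (by total counts 4, 5 and 2 fell and 2, 1 and 0 rose), with medians of -0.86, -1.14 and -0.98. The summed level of 10 Kupffer cell markers was 1763 to 2280 CPM in 2-week YAP livers, 465 to 1298 CPM in 4-week YAP livers and 354 to 359 CPM in YAP controls. In MYC livers it was 692 to 1005 CPM, against 330 to 347 CPM in MYC controls. That of 15 T and NK cell markers was 9.99 to 14.3 CPM in 2-week YAP livers, 3.87 to 10.32 CPM in 4-week YAP livers and 5.02 to 6.58 CPM in YAP controls, where 6 of the 15 (Cd3d, Cd3g, Cd8a, Cd8b1, Nkg7, Klrb1c) were at 0 counts. In MYC livers it was 21.8 to 38.8 CPM, against 10.45 to 12.1 CPM in MYC controls. The part of any of these cell types in the class I and class II values was not tested.

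**Figure D4:**
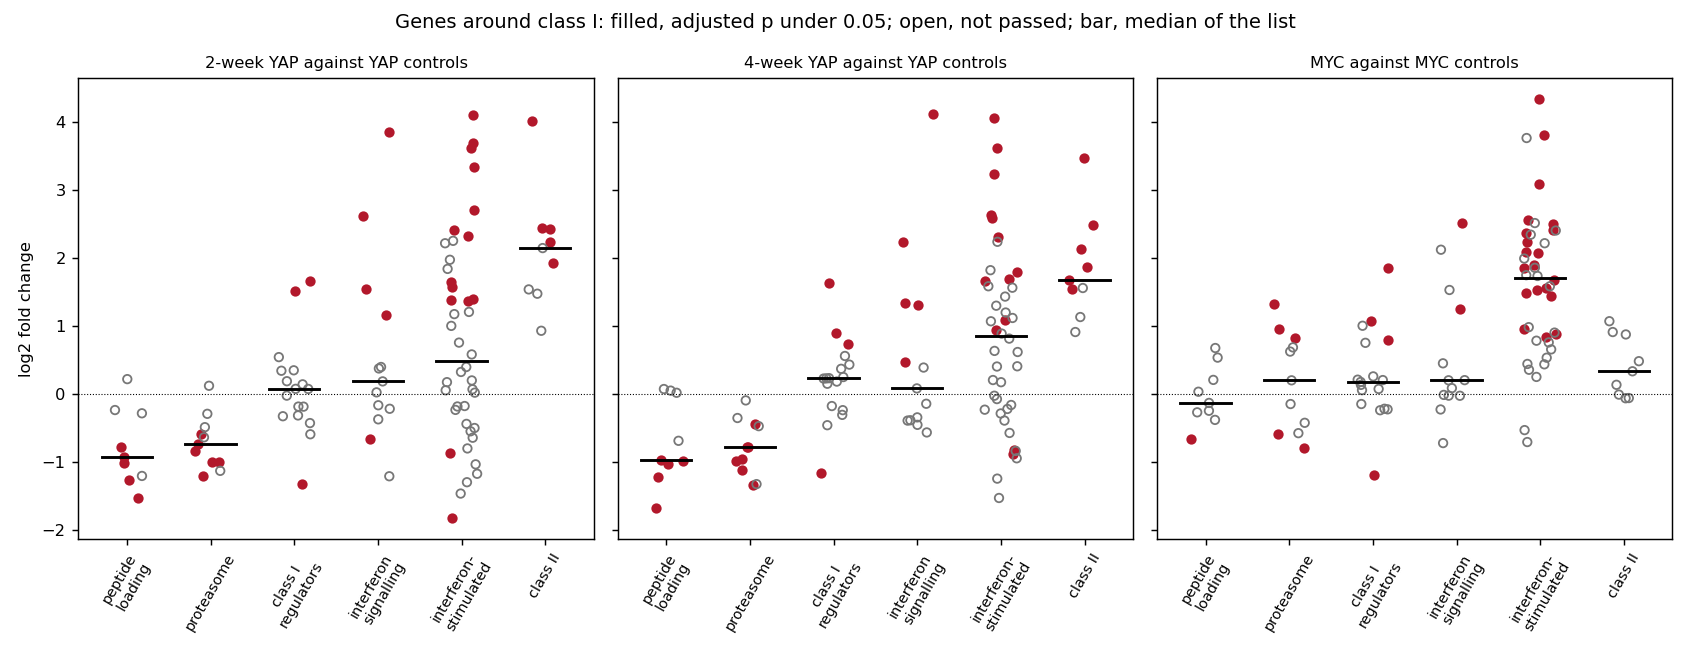
Log2 fold changes (y axis) of the genes in 6 lists around class I (x axis), 1 panel per comparison and 1 point per gene; filled points passed an edgeR adjusted p under 0.05 and the bar is the median of the list. Peptide-loading genes have medians of -0.93, -0.96 and -0.13 and interferon-stimulated genes of 0.49, 0.85 and 1.71 at 2 weeks of YAP, 4 weeks of YAP and with MYC; both lists lie higher by total counts.

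Of 34 other class I and class I-like genes in the tables, 19 had enough counts to be tested. Of all tested genes 27.8% passed at 2 weeks of YAP, 33.8% at 4 weeks and 18.3% with MYC. Beside those shares nothing is read from the number of calls in this list. At 2 weeks of YAP 1 rose and 3 fell, at 4 weeks 3 rose and 2 fell, and with MYC 1 rose and 1 fell, and the rest did not pass (by total counts 5 rose at 2 weeks; 5 rose and 1 fell at 4 weeks; 2 rose and 1 fell with MYC). H2-M3, which presents formylated bacterial peptides, rose by 1.47 ± 0.43 at 2 weeks (edgeR adjusted p = 0.0258) and by 1.43 ± 0.40 at 4 weeks (edgeR adjusted p = 0.0188). Cd1d1, which presents lipids to natural killer T cells, had 40.0 and 22.2 CPM in 2-week YAP livers and 27.6 to 44.2 CPM in 4-week YAP livers, against 91.7 and 95.3 CPM in YAP controls, and fell by 1.59 at 2 weeks (edgeR adjusted p = 0.0339) and by 1.39 at 4 weeks (edgeR adjusted p = 0.0298), calls that total counts did not keep. H2-Q5, a Q gene that shares 17.4% of the 50-base windows of H2-Q7, had 1.78 to 6.71 CPM in 4-week YAP livers against 0.743 and 0.870 CPM in YAP controls (log2 fold change 2.49 ± 0.61, edgeR adjusted p = 0.0101). Fcgrt, the receptor that recycles IgG and albumin and pairs with B2m, fell with MYC by 1.34 (edgeR adjusted p = 0.00692), and H2-T24 rose by 1.87 ± 0.40 (edgeR adjusted p = 0.00938). The 2-week total of 4 became 0 without YAP control 1, YAP control 2 or 2-week replicate 2 and 2 without 2-week replicate 1. The 4-week total of 5 became 2 without YAP control 1 and 3 without YAP control 2 or 4-week replicate 3, and the MYC total of 2 became 6 without MYC replicate 1, 0 without MYC control 1 and 1 without MYC control 2.

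Over all 12 libraries, the genes whose log2(CPM + 1) profile was nearest to that of H2-Q1, by root mean square difference after centring each gene on its mean, were Ccnd1 (0.95), Arhgap44 (1.05), Klhl13 (1.12), Neurl1b (1.17) and Nid1 (1.24), where the spread of H2-Q1 itself was 2.38. For H2-K1, with a spread of 1.06, they were Gna14 (0.31), H2-Q7 (0.35), Kcp (0.36), Habp4 (0.40) and Wdr83os (0.43). The libraries share the 5 groups, so this likeness describes group patterns over 14407 genes and nothing else. H2-Q7, a member of the class I set, was the nearest class I gene to H2-K1.

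Control livers of the 2 models differed from each other in several class I genes, named here after their values were seen and given without a test. H2-K1 had 298 and 241 CPM in MYC controls and 890 and 948 CPM in YAP controls, while its neighbour H2-K2 had 38.5 and 36.6 CPM in MYC controls and 0.676 and 2.33 CPM in YAP controls. H2-T22 had 6.10 and 7.49 CPM in MYC controls and 39.8 and 37.8 CPM in YAP controls, and H2-T10 had 14.8 and 11.2 CPM in MYC controls and 4.54 and 2.02 CPM in YAP controls. The class II gene H2-Eb1 had 0.530 and 0.156 CPM in MYC controls, from 6 and 2 reads, and 10.53 and 7.53 CPM in YAP controls, whereas H2-Ab1 had 10.43 and 8.26 CPM in MYC controls and 11.5 and 11.1 CPM in YAP controls. The H2 region is the most polymorphic of the mouse genome and counts depend on how reads of an allele map to the reference. With strain and haplotype not given in the sources used here, a difference of level and a difference of allele between the models cannot be told apart. The control groups also differ in transgenes and age. MYC controls were taken 4 weeks after birth, while AAV-TBG-Cre at 8 to 10 weeks of age is listed for YAP controls. Within a model, YAP mice share their labelled transgenes, and MYC livers are set against LAP-tTA alone. Whether alleles also differed between mice of 1 model is not given, and their part in the levels was not tested.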

How the data were processed

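Total liver RNA of 12 mouse liver samples in 5 groups was sequenced, and each sample has its own table of raw read counts per gene symbol, which the authors deposited unnormalized. The submitters' processing notes list featureCounts 1.6.3 and HISAT2 2.1.0, the GRCm38 build, DESeq2 1.20.0 and also Trim Galore 0.4.1, with no role or order. The annotation release, strand setting and handling of multi-mapped reads are not given in the sources used here. Groups were taken from the labels.

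Counts of 48576 genes were joined and filtered by edgeR's filterByExpr, which left 17964. edgeR 4.0.16 in R 4.3.3 fitted 1 mean per group over all 12 libraries, with TMM factors, robust quasi-likelihood dispersion (7 residual degrees of freedom, biological coefficient of variation 31.5%) and two-sided tests. P-values were adjusted by Benjamini-Hochberg over all tested genes and called under 0.05. SE is the log2 fold change divided by the square root of F. The tests were checked on simulated data. Alternatives were total-count and RLE scaling, no low-count filter, DESeq2 1.42.0, libraries of the same model only, a replicate block, near copies summed, and leaving out each library. Leaving out 1 control leaves a lone sample, assumed to vary like the other groups. The number of all tested genes that passed also changed when 1 library was left out, and at 2 weeks of YAP it fell in each such fit. A smaller count or a lost call in these fits is therefore not particular to the genes it is given for.

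The 10 genes, the lists and the tests were chosen with earlier results of these data known. Apart from the 10, genes are named as follows: up to 4 genes per list and comparison with the smallest p among those called, and Tap1, Tap2, Tapbp, Psmb8, Psmb9, Psmb10, Nlrc5 and Irf1 in any case, with 1 further gene that is not reported here; for likeness, the 5 nearest genes to H2-Q1 and H2-K1. Shared 50-base windows and exon lengths come from GENCODE vM21 transcripts of GRCm38. Promoters come from RefSeq, which had an entry for 9 of the 10 genes (none for H2-Q1). Figures were drawn with matplotlib 3.10.9.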

Additional observations from a re-analysis of the deposited data

Results flagged for a closer look

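In 3 of the 10 class I genes every 4-week YAP library lay above its controls and every MYC library below its controls, a pattern that 3.57% of all tested genes had. The pattern chose H2-Q1, and H2-Q2 shares stretches of sequence with H2-Q1, so nothing is read from that count. The log2 fold change with MYC minus that at 4 weeks of YAP was -9.19 for H2-Q1, -5.26 for H2-Q2 and -1.59 for H2-Q6, and these differences were not tested. In H2-Q2 both fold changes had passed on their own, the MYC one not by total counts, with no low-count filter or with libraries of the same model only; in H2-Q6 the MYC value had not, and H2-Q1 was not tested at all. For H2-Q6 the lower MYC control was at 4.42 CPM and the highest MYC library at 4.41 CPM, and by total counts the MYC log2 fold change was 0.08. With fewer than 4 libraries in each group, the distance of a single library from its group was not tested, including the 4-week YAP replicate 1 that had 257 CPM of H2-Q1.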

How the results depend on the processing

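Of the recomputed results for the 9 tested genes, 352 kept direction and side of the threshold, 29 lost the call, 9 gained it and 25 changed sign. By total counts H2-Q7 was 0.24 at 2 weeks and 0.61 at 4 weeks of YAP, H2-D1 0.46 and H2-T23 0.0573 at 4 weeks, H2-Q6 0.0814 with MYC, and H2-K1 0.15 between 4 and 2 weeks, all on the log2 scale and all of the opposite sign to TMM. H2-D1 at 2 weeks was -0.00671 by RLE scaling, -0.00332 by DESeq2 and -0.0222 from libraries of the same model only, against 0.01. DESeq2 called 5 genes with MYC, and with near copies summed the count was 2 at 2 weeks of YAP, since H2-Q6 lost its call and H2-Q2 was merged with H2-Q1 and not tested. Replicate numbers are shared between groups, and deviations of same-numbered libraries correlated at -0.073 to 0.11. In a group of 2 libraries the 2 deviations mirror each other, so these values cannot tell whether same-numbered libraries are related. With the replicate block the counts were 3 at 4 weeks of YAP and 1 with MYC. Between 4 and 2 weeks H2-Q6 was then -0.17 and H2-Q7 -0.16. Leaving out each library in turn gave 3 genes at 2 weeks in every fit, 3 to 7 at 4 weeks, 1 to 5 with MYC and 0 between the times, and a model difference of -9.66 to -7.24 for H2-Q1. The same fits gave -0.14 to 0.15 for H2-D1 at 2 weeks, -0.51 to 0.22 for H2-Q7 at 4 weeks and -0.17 to 0.32 for H2-Q4 with MYC. Between 4 and 2 weeks they gave -0.24 to 0.11 for H2-K1, -0.19 to 0.26 for H2-Q6, -0.21 to 0.51 for H2-Q7, -0.0574 to 0.31 for H2-Q10 and -0.13 to 0.54 for H2-T23. The cause of these changes was not tested, beyond the smaller number of libraries. H2-Q2 in YAP controls rests on 5 and 2 reads, and its fold changes are limited by that depth.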

Other observations

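Biliary markers stood apart between the models in their summed level, at 563 to 1180 CPM in 2-week YAP livers, 396 to 3074 CPM in 4-week YAP livers and 105 to 116 CPM in YAP controls, and at 2.87 to 7.84 CPM in MYC livers against 12.3 to 16.6 CPM in MYC controls. Their part in the class I levels was not tested. In a list of 24 genes of T and NK cells and class I receptors, of which 12 were tested (Pirb, which myeloid and B cells also express, among those called at both YAP times), 2 rose at 2 weeks of YAP, 3 rose and 1 fell at 4 weeks, and 2 rose with MYC. By total counts 5 rose at 2 weeks, 4 at 4 weeks and 3 with MYC, with none lower, and by DESeq2 4 rose at 2 weeks. In edgeR with TMM scaling 27.8% of all tested genes passed at 2 weeks, 33.8% at 4 weeks and 18.3% with MYC. Nothing is read from the number of calls in this list. The MYC count was 0 without MYC replicate 2 or either MYC control and 1 without MYC replicate 1 or 3, the 2-week count was 4 without 2-week replicate 1, and the 4-week count of 4 was 2 without either YAP control. Myc, outside the class I genes, had 105 and 107 CPM in 2-week YAP livers and 117, 64.8 and 111 CPM in 4-week YAP livers, against 53.2 and 8.17 CPM in YAP controls.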
